A study of Xenopus laevis with 5 samples.

Results

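The genes described here are those of the BMP, TGF-beta and activin pathways in ectodermal explants of the frog Xenopus laevis. They were chosen by name from the annotated symbols: BMP, GDF, nodal, inhibin beta and TGF-beta ligands, the Acvr, Bmpr and Tgfbr receptors, Bambi, Smads and Smurfs, the antagonists noggin, chordin, follistatin, gremlin and lefty, and the id, msx and ventx genes. Of 7531 named genes on the array 66 fitted, carried by 81 probe sets, and each gene was read from its brightest probe set. Another 8 probe sets that fitted the pattern bear several symbols and were not used. The choice of members was made with earlier results of these data known. Copies on the L and S subgenomes, called homeologs, count as separate genes, although the probes of an L copy may pick up RNA of its S copy and the other way round.

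Embryos had been injected at the 2-cell stage with synthetic RNA, the future ectoderm was cut out between stages 9 and 10 and cultured on fibronectin, and the explants were lysed at stage 22. In 2 samples the RNA encoded ICD together with FoxJ1 (ICD+FoxJ1), and in 3 samples ICD alone (ICD). ICD usually stands for the intracellular domain of Notch, which the labels do not spell out, and FoxJ1 is a forkhead factor of motile cilia. Explants of both groups carried ICD, so the comparison asks what FoxJ1 changes on top of it and not what either does to uninjected ectoderm. Each sample was hybridised to 1 Affymetrix array, and the values are MAS5 signals on a linear scale.

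BMP ligands bind pairs of type I and type II receptor kinases, which phosphorylate Smad1 and its relatives; activin, nodal and TGF-beta ligands act through Smad2 and Smad3, and both branches share Smad4. Secreted antagonists such as noggin and chordin hold BMPs away from the receptors. In frog ectoderm BMP signalling favours epidermis over neural plate and induces id, msx and ventx genes, while inhibitory Smads, Bambi and Smurf ligases damp the signal.

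Median signals per array were 73.5 and 69.7 with ICD+FoxJ1, and between 62.1 and 72.7 with ICD. As background each array was given the brightest of 20 control probe sets against RNAs foreign to the frog, between 16.9 and 28.4. Poly-A control RNAs gave signal on ICD+FoxJ1 replicate 1 and ICD replicates 1 and 2 but hardly on ICD+FoxJ1 replicate 2 and ICD replicate 3, a split that crosses the groups and is given beside results below. Over 19 epidermal marker genes the summed signals were 56254 and 69327 with ICD+FoxJ1 and 63305 to 79340 with ICD. Keratin genes and itln1.L carried most of the sum. Dimmer markers were dsp.S, with 9.0 to 54.3 over the arrays, and tp63.L, with 26.3 and 36.2 with ICD+FoxJ1. Of the 19 genes 4 were lower and 0 higher, among them krt19.L and tp63.L, which fell by 1.96 and 1.81 on the log2 scale. All 15 marker genes of multiciliated cells were higher with FoxJ1, with summed signals of 24398 and 27517 against 462 to 1974 with ICD. Of 22 neural and neural crest markers tested 1 was higher and 6 were lower, beside 4.54% and 3.00% of all probe sets tested. Of these 6, snai2.S, snai2.L and ncam1.S passed the filter on mean signal, given below, only through the ICD arrays. Likewise tekt2.L of the multiciliated markers passed it only through the arrays with FoxJ1. In the list of mesoderm, muscle, blood and endoderm 10 of 16 markers lay at background on every array. Of the 3 tested from that list 1 was higher and 1 lower. The myogenic factor gene myod1.L had 99.5 and 48.4 with ICD+FoxJ1, against 20.6, 21.7 and 21.3 with ICD (limma adjusted p = 0.0411). Its signals on ICD replicates 1 and 3 lay below background, and with no filter limma's adjusted p was 0.0617. The muscle creatine kinase gene ckm.L had 207.4 and 213.4 with ICD+FoxJ1, against 493.7, 499.6 and 634.3 with ICD (limma adjusted p = 0.0149). Of 4 ionocyte markers tested 2 were higher, and of 5 cement and hatching gland markers 0 passed. The ionocyte markers atp6v1a.L (0.54 on the log2 scale) and atp6v1b1.L (-0.71) did not pass. Their fellows foxi1.L, slc4a1.L and ubp1.L were too dim to test. The part of these cell types in the results below was not tested. In such bulk samples fewer cells of a type and less RNA per cell cannot be told apart.

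Pathway genes that the arrays could measure passed the test between explants with and without FoxJ1 at a share near that of all probe sets. Of the 66 genes 42 passed the filter, which left out the dimmest 25% of probe sets, and 24 did not. Among the 42, 1 gene rose (id2.S), 1 fell (smad6.L) and 40 did not pass limma's test at an adjusted p of 0.05. That is 4.76% called, against 7.54% of all 11618 probe sets tested. By direction, 4.54% of all probe sets were higher and 3.00% lower. With 42 genes, counts of 1 and 1 lie near these shares. The median log2 difference, which is ICD+FoxJ1 minus ICD throughout, was -0.04 over the 42 genes and -0.03 over all probe sets. An unadjusted p under 0.05 was reached by 6 of the 42 genes (14.3%) and by 24.8% of all probe sets. For 23 of the 42 (54.8%) the 95% interval of the difference lay within a 2-fold change in either direction, against 52.1% of all probe sets. The ICD+FoxJ1 arrays lay entirely above the ICD arrays in 6 genes and entirely below in 3, which is 14.3% and 7.14%, against 21.3% and 23.1% of all probe sets tested. Nothing in the labels ties a replicate to its own batch of embryos, and the p-values reflect the spread among these 5 samples alone, which may be technical.

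**Figure D1:**
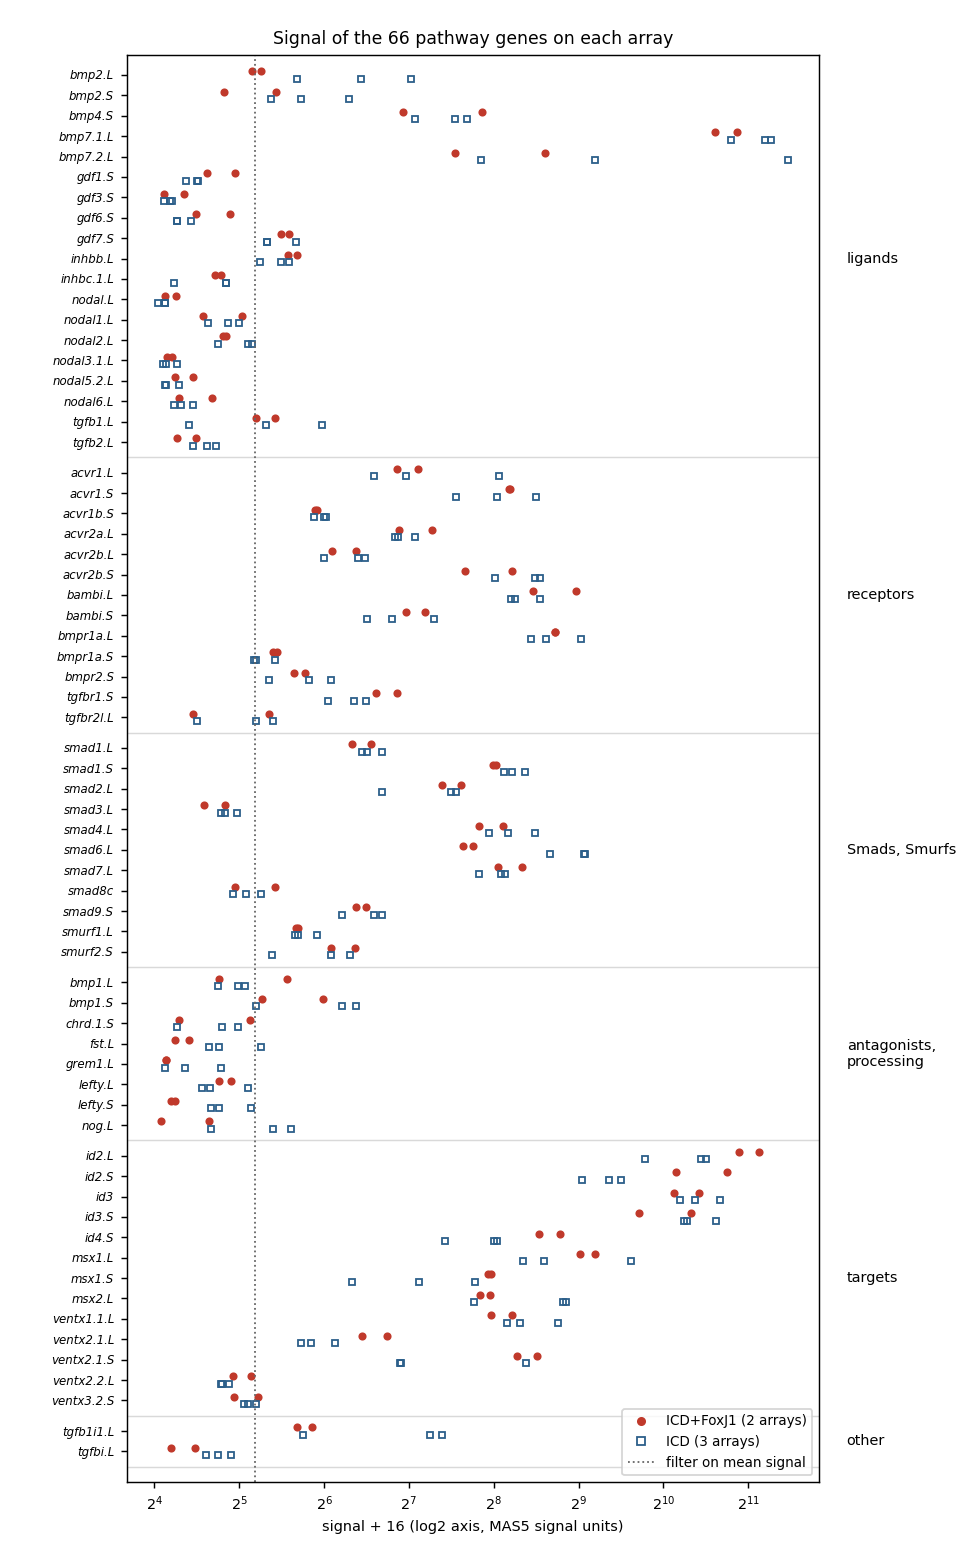
Signal plus 16 on a log2 axis for the 66 pathway genes, by role, with filled circles for the 2 ICD+FoxJ1 arrays and open squares for the 3 ICD arrays. The nodal, lefty and most GDF genes sit left of the dotted filter level, whereas receptors, Smads and targets mostly sit right of it, and the groups separate downward in smad6.L and upward in id2.S.

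Among the ligands, expression above background was found for BMPs rather than for nodals. Of 19 ligand genes 8 passed the filter, and 11 lay at background on all 5 arrays. Those at background are all 6 nodal genes (nodal, nodal1, nodal2, nodal3.1, nodal5.2 and nodal6, each the L copy), the GDF genes gdf1.S, gdf3.S and gdf6.S, inhbc.1.L of the inhibin beta family and tgfb2.L. None of the 8 tested ligands passed the test, against 7.54% of all probe sets, and their median log2 difference was -0.19. With 8 genes a count of 0 lies near that share.

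The only tested ligand gene whose groups did not overlap was bmp2.L. Its signals were 19.6 and 22.3 on the ICD+FoxJ1 arrays, against 113.9, 70.7 and 35.3 on the ICD arrays. Both arrays with FoxJ1 were thus below every array without, while the ICD arrays spread widely among themselves. The signals with FoxJ1 lay near background, which was 16.9 on the first and 25.3 on the second of these arrays. The log2 difference was -1.17 (SE 0.37, 95% interval -2.04 to -0.30), and limma's adjusted p of 0.107 did not pass. It passed in 1 of 14 alternatives, the one that leaves out ICD replicate 3, the ICD array nearest to those with FoxJ1 (-1.52, adjusted p = 0.0337), and in the other 13 the adjusted p ran from 0.0757 to 0.402. Its homeolog bmp2.S had 12.2 and 27.3 with ICD+FoxJ1 and 62.6, 37.0 and 25.6 with ICD, so that the groups overlapped, and the difference was -0.67 (SE 0.32, adjusted p = 0.246 by limma). This copy passed the filter only through the ICD arrays. In both copies the order of the ICD arrays was the same, with replicate 1 brightest and replicate 3 dimmest. On the arrays with poly-A control signal the log2 differences were -1.58 and -1.19 for the L and S copies, and on the arrays without it -0.42 and 0.06.

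The genes for BMP4 and BMP7, the other main BMPs of early frog ectoderm, were well above background on all arrays. Bmp7.1.L had signals of 1546 and 1851 with ICD+FoxJ1 and of 1760, 2340 and 2446 with ICD, and the log2 difference of -0.35 (SE 0.22) had an adjusted p of 0.361. One ICD array lay between those with FoxJ1, so the groups overlapped. The widest spread of any member was in bmp7.2.L, named here after its values were seen. Its signals were 171.0 and 374.3 with ICD+FoxJ1, against 2810, 570.0 and 214.8 with ICD. A single array, ICD replicate 1, carried the high mean, and ICD replicate 3 lay between the arrays with FoxJ1. The difference of -1.43 (SE 0.91) had a 95% interval of -3.54 to 0.69 and turned direction within the control split, with -2.78 on the arrays with poly-A control signal and 0.76 on those without. Bmp4.S differed by -0.03, with an interval of -0.83 to 0.76. The remaining tested ligands, gdf7.S, inhbb.L (activin B) and tgfb1.L, differed by 0.10, 0.19 and 0.07.

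No receptor gene passed the test. Of 13 receptor and pseudoreceptor genes 12 passed the filter. By limma's test 0 of the 12 rose or fell, against 7.54% of all probe sets. With 12 genes a count of 0 lies near that share. An unadjusted p under 0.05 was reached by 0, against 24.8% of all probe sets. Log2 differences ran from -0.41 to 0.44 with a median of 0.09. For 9 of the 12 (75%, against 52.1% of all probe sets) the 95% interval lay within a 2-fold change. The type I receptor gene of TGF-beta, tgfbr1.S, had 81.8 and 99.8 with ICD+FoxJ1, against 50.2, 65.5 and 73.8 with ICD. It was the only receptor gene whose groups did not overlap, at a difference of 0.44 on the log2 scale (SE 0.24, adjusted p = 0.314 by limma, 95% interval -0.13 to 1.01).

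Bambi encodes a pseudoreceptor without a kinase that blocks BMP and activin receptors and is itself a BMP target. Bambi.L had 335.6 and 486.5 with ICD+FoxJ1 and 358.7, 288.3 and 278.6 with ICD, which is 0.38 apart on the log2 scale (SE 0.25, adjusted p = 0.396 by limma), and bambi.S differed by 0.21. Acvr2b.S, a type II receptor gene of activin and nodal, had 280.5 and 186.8 with ICD+FoxJ1 and 242.6, 342.2 and 356.4 with ICD, a difference of -0.41 (SE 0.28, limma adjusted p = 0.409). In both genes the groups overlapped. The BMP type I receptor copies bmpr1a.L and bmpr1a.S differed by 0.03 and 0.16, and 2 dimmer probe sets of bmpr1a.L gave 0.11 and 0.12. The acvr1 copies, a type I receptor of BMPs, had differences of opposite sign, -0.22 for acvr1.L and 0.16 for acvr1.S, and neither passed. Bmpr2.S, the BMP type II receptor gene, differed by -0.04, acvr1b.S by -0.06 and acvr2a.L by 0.15. Tgfbr2l.L, whose highest signal was 26.2, was too dim to test.

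**Figure D2:**
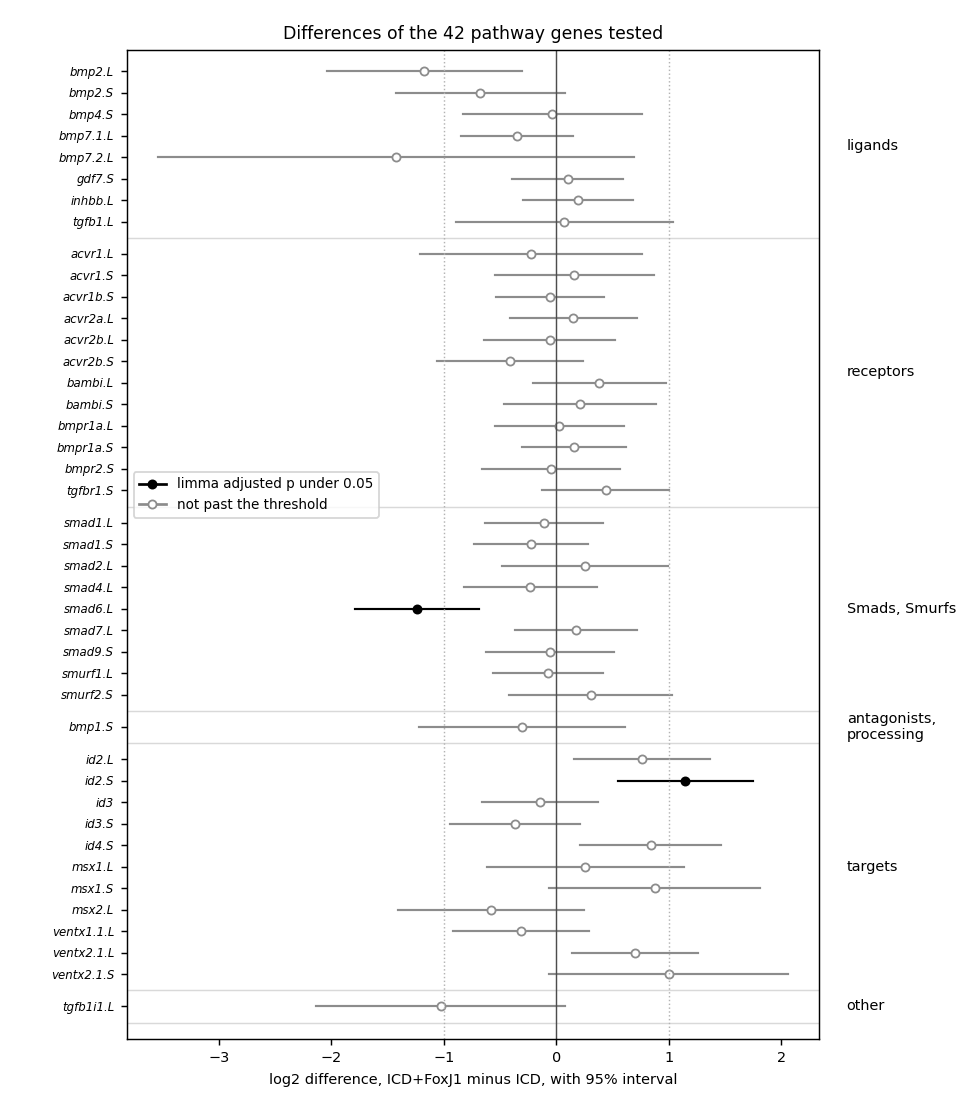
Log2 difference of ICD+FoxJ1 minus ICD with its 95% interval for the 42 pathway genes tested, grouped by role, with dotted lines at a 2-fold change either way. Only smad6.L and id2.S, in black, passed the adjusted threshold, and the receptor intervals all span 0.

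Among the 9 intracellular genes tested 1 passed (11.1%, against 7.54% of all probe sets), the inhibitory Smad gene smad6.L. Smad6 binds activated BMP receptors and Smad1, is induced by BMP signalling and damps it. Its signals were 182.5 and 199.8 with ICD+FoxJ1, against 521.8, 519.6 and 387.9 with ICD. Every array with FoxJ1 was below every array without, by a gap far wider than the distance between the arrays with FoxJ1. The means were 191 ± 12.2 (SD, n = 2) with ICD+FoxJ1 and 476 ± 76.7 (SD, n = 3) with ICD. Smad6.L fell by 1.24 on the log2 scale (SE 0.24, 95% interval -1.79 to -0.69, limma adjusted p = 0.0220). Within the control split the difference was -1.44 on the arrays with poly-A control signal and -0.90 on those without. Over 14 alternatives it ran from -1.44 to -1.07 and was past the threshold in 9. The call was lost when ICD replicate 2 was left out (adjusted p = 0.0665), and likewise on leaving out the first (0.195) or the second (0.137) array with FoxJ1.

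No other Smad or Smurf gene passed. Smad7.L, the other inhibitory Smad gene, which also damps TGF-beta and activin signals, differed by 0.18, and its 2 dimmer probe sets by 0.20 and 0.48. The difference between smad6.L and smad7.L was not itself tested. Smad1.S, a transducer of BMP signals, had 238.1 and 245.7 with ICD+FoxJ1, against 281.2, 263.0 and 314.6 with ICD. The groups did not overlap, but the log2 difference was small, at -0.23 (SE 0.22, limma adjusted p = 0.566, 95% interval -0.73 to 0.28), and smad1.L gave -0.11. Smurf2.S, a ubiquitin ligase gene for Smads and receptors, had 52.0 and 66.7 with ICD+FoxJ1 and 25.7, 63.2 and 51.6 with ICD, a difference of 0.31 (SE 0.31, limma adjusted p = 0.587). The groups overlapped there, as they did in smad4.L, the shared partner Smad, with 260.2 and 210.9 against 342.4, 270.7 and 231.0 with ICD (-0.23, SE 0.25, limma adjusted p = 0.616). Smad9.S, smurf1.L and smad2.L differed by -0.06, -0.07 and 0.25. For 7 of the 9 genes tested in this class (77.8%, against 52.1% of all probe sets) the interval lay within a 2-fold change. Smad3.L and smad8c were too dim to test.

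The secreted antagonists were mostly at or near background. Of 8 genes for antagonists and ligand processing only bmp1.S passed the filter. Bmp1 is a metalloproteinase that cleaves chordin. It had 22.5 and 47.2 with ICD+FoxJ1 and 58.3, 20.8 and 67.0 with ICD, and the groups overlapped, at -0.31 on the log2 scale (SE 0.39, adjusted p = 0.678 by limma). A dimmer bmp1.S probe set gave 0.05, and a further one lay at background on every array, with signals of 3 to 4.7. The follistatin gene fst.L, grem1.L, lefty.L and lefty.S lay at background on all arrays, and chrd.1.S and bmp1.L each exceeded it on 1.

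The noggin gene nog.L, named after its values were seen, reached the highest single signal among the antagonists left out by the filter. It had 0.9 and 8.9 with ICD+FoxJ1, against 9.5, 26.3 and 32.8 with ICD, and only ICD replicates 2 and 3 exceeded background. With no filter its log2 difference of -0.87 (SE 0.31, limma adjusted p = 0.175) did not pass. With both arrays with FoxJ1 set to background, it was 1.02-fold lower on the scale of signal plus 16, which is almost no difference. Lefty.S and fst.L also had both arrays with FoxJ1 below all ICD arrays, at adjusted p of 0.107 and 0.199 with no filter, but at background on every array. Over all 24 dim genes 0 passed limma's test with no filter at an adjusted p of 0.05 (4.59% of all 15491 probe sets did). An unadjusted p under 0.05 was reached by 4, namely nog.L, lefty.S, fst.L and tgfbi.L. All 4 were lower, and all but nog.L lay at background on every array. The share of all probe sets at that unadjusted level with no filter was not counted. In the dim genes gdf1.S, gdf6.S and ventx2.2.L both arrays with FoxJ1 lay above all ICD arrays. Of these, gdf1.S and gdf6.S were at background on every array, and ventx2.2.L exceeded it on 1. The share of dim probe sets without overlap was not counted in either direction, so no change is read from the order of these signals.

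Several id, msx and ventx genes had higher signals on both arrays with FoxJ1, and 1 of them passed the test. Of these 13 genes 11 passed the filter. Among the 11, 1 rose (9.09%, against 4.54% of all probe sets), 0 fell (against 3.00%) and 10 did not pass. In 5 of the 11 both arrays with FoxJ1 lay above all ICD arrays and in 0 below, against 21.3% and 23.1% of all probe sets. Members were chosen with earlier results of these data known, so shares in this class cannot be read as an excess. The homeologs id2.L and id2.S are 2 of the 5 and may pick up each other's RNA. The median log2 difference was 0.70. An unadjusted p under 0.05 was reached by 4 of the 11, all upward. Of all 11618 probe sets 1440 reached it upward and 1437 downward, which is 24.8% in either direction. In 9 of the 11 (81.8%) the difference had the same sign on both sides of the control split. That is near the 73.1% of all probe sets, and 25 of the 42 pathway genes did so. For the 5 genes without overlap the same sign follows from the lack of overlap and adds nothing to it.

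Id genes encode helix-loop-helix proteins without a DNA-binding region, which sequester other factors of that kind and are direct BMP targets in many cells. Id2.S had 1120 and 1702 with ICD+FoxJ1, against 642.5, 511.1 and 706.8 with ICD, so the groups did not overlap, but the arrays with FoxJ1 lay farther from each other than the lower of them lay from the highest ICD array. The means were 1411 ± 411 (SD, n = 2) and 620 ± 99.7 (SD, n = 3). Id2.S rose by 1.15 on the log2 scale (SE 0.26, 95% interval 0.55 to 1.75, limma adjusted p = 0.0383), and by 0.95 and 1.25 on the arrays with and without poly-A control signal. Over 14 alternatives the difference stayed between 0.85 and 1.45 and passed in 7. With no filter the adjusted p was 0.0522. It was 0.0976 when ICD replicate 2 was left out, 0.0615 for ICD replicate 3, and 0.0999 and 0.273 for the first and the second array with FoxJ1.

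Id2.L, its homeolog, had 2216 and 1883 with ICD+FoxJ1 and 868.1, 1437 and 1379 with ICD. All arrays with FoxJ1 were again above those without, but the difference of 0.76 (SE 0.26, limma adjusted p = 0.127, 95% interval 0.15 to 1.37) did not pass. Id4.S had 424.9 and 354.0 with ICD+FoxJ1, against 246.0, 239.7 and 156.1 with ICD, also without overlap, with a difference of 0.84 (SE 0.27, limma adjusted p = 0.109). The id3 genes differed from this pattern in their values: id3.S gave -0.37 and the probe set named id3, which the annotation assigns to neither copy, gave -0.14. In both, the groups overlapped, and a second id3 probe set gave -0.31. The difference between id2 and id3 genes was not itself tested.

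**Figure D3:**
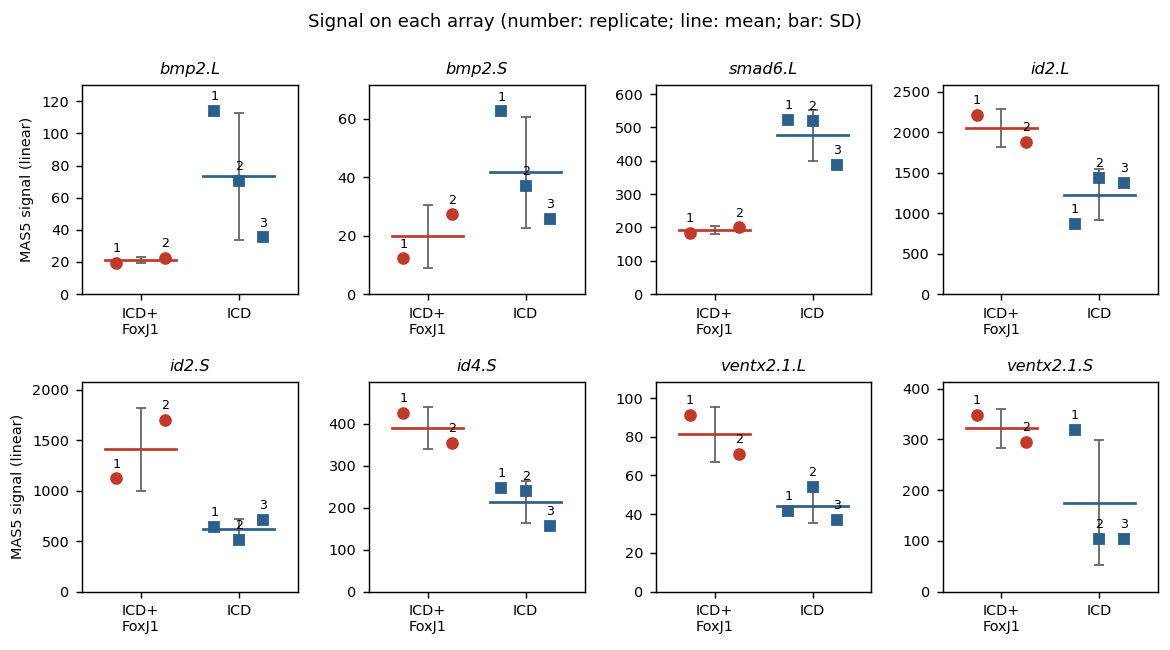
MAS5 signal on a linear axis from 0 for 8 pathway genes, with ICD+FoxJ1 left and ICD right; points are arrays with their replicate number, lines are means and bars are SDs (n = 2 and n = 3). Smad6.L is lower and id2.S higher on both arrays with FoxJ1, whereas in bmp2.S and ventx2.1.S single ICD arrays reach the values of the other group. The genes were picked with their values known. The tested target genes with negative log2 differences, id3, id3.S, msx2.L and ventx1.1.L, are not shown.

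Ventx genes encode homeodomain repressors that act downstream of BMP in ventral cells. Ventx2.1.L had 91.3 and 71.3 with ICD+FoxJ1, against 41.5, 54.2 and 36.8 with ICD, with no overlap, and differed by 0.70 (SE 0.24, adjusted p = 0.129 by limma). Ventx2.1.S, named after its values were seen, had 348.9 and 294.3 with ICD+FoxJ1 and 318.2, 103.1 and 104.3 with ICD. Here ICD replicate 1 lay between the arrays with FoxJ1, and the other ICD arrays were far below it. The difference was 1.00 (SE 0.46, limma adjusted p = 0.225), and it passed in 1 of 14 alternatives. That one leaves out ICD replicate 1, the ICD array nearest to those with FoxJ1 (1.49, adjusted p = 0.00491), and in the other 13 the adjusted p ran from 0.215 to 0.679. Ventx1.1.L differed by -0.32 and its dimmer probe set by 0.30, while ventx2.2.L and ventx3.2.S were too dim to test.

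Msx1 and Msx2 are homeodomain factors that BMP induces in ectoderm and at the neural plate border. Msx1.S, named after its values were seen, had 228.7 and 233.4 with ICD+FoxJ1, against 204.2, 122.9 and 64.1 with ICD. The groups did not overlap, and the difference was 0.87 (SE 0.40, limma adjusted p = 0.229). Only leaving out ICD replicate 1, the ICD array nearest to those with FoxJ1, gave a call (1.23, adjusted p = 0.0347), and in the other 13 alternatives the adjusted p ran from 0.190 to 0.783. Msx1.L, with overlapping groups, differed by 0.26. Msx2.L differed by -0.58, with a dimmer probe set at 0.07. On the arrays with poly-A control signal msx2.L gave -0.99 and on the others 0.19, and msx1.L gave -0.08 and 0.85.

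The pattern for the pathway also took in genes named after TGF-beta that encode neither its ligands nor its receptors. Tgfb1i1.L encodes a LIM domain protein of focal adhesions. Its signals were 35.3 and 42.1 with ICD+FoxJ1, against 37.9, 136.6 and 151.5 with ICD, so that ICD replicate 1 lay among the arrays with FoxJ1 and the other ICD arrays were far above. The difference on the log2 scale was -1.03 (SE 0.48, adjusted p = 0.231 by limma). Only leaving out ICD replicate 1 gave a call (-1.55, adjusted p = 0.00488), and in the other 13 alternatives the adjusted p ran from 0.165 to 0.693. Tgfbi.L, a secreted matrix protein gene, lay at background on all arrays.

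Both homeologs were tested for 9 of the pathway genes. The 2 copies had differences of the same sign in 8 of the 9 pairs, namely acvr2b, bambi, bmp2, bmpr1a, id2, msx1, smad1 and ventx2.1, and of opposite sign in acvr1. In some of these pairs a copy differed by almost nothing, such as bmpr1a.L at 0.03 and acvr2b.L at -0.06. The share of such pairs over all genes was not counted, and cross-hybridisation between copies was not tested. The ICD arrays were themselves uneven for these genes: ICD replicate 1 gave the highest ICD signal in 19 of the 42 genes (45.2%, against 35.5% of all probe sets) and ICD replicate 3 the lowest in 21 (50.0%, against 29.3%). In 17 of the 42 (40.5%, against 17.9% of all probe sets) ICD replicate 1 was the brightest and ICD replicate 3 the dimmest of the ICD arrays. Bmp2.L, bmp2.S, bmp7.2.L, smad6.L, id4.S, msx1.L, msx1.S and msx2.L are among them. With the control split as a block, limma called the same 2 genes and 5.04% of all probe sets, with adjusted p of 0.0491 for smad6.L and 0.0478 for id2.S.

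**Figure D4:**
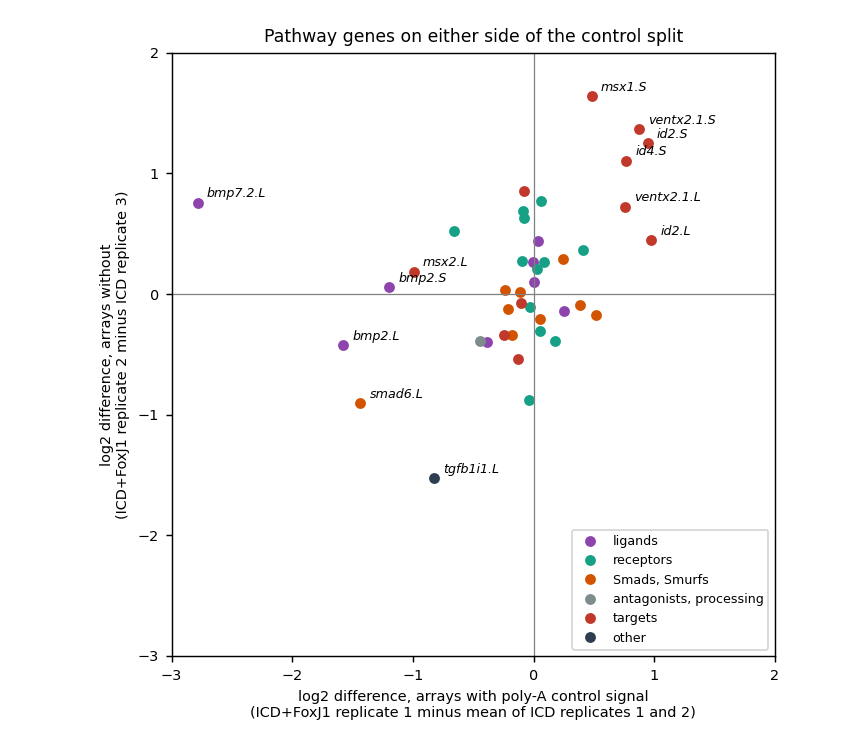
Log2 difference of each of the 42 pathway genes tested on the arrays with poly-A control signal (horizontal) and on those without (vertical), coloured by role. Id2.S, id4.S, ventx2.1.S and msx1.S lie in the upper right and smad6.L and tgfb1i1.L in the lower left, whereas bmp7.2.L has opposite signs on the axes.

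Genes of the pathway that the symbol pattern does not cover were read from 4 further lists. These lists were chosen with earlier results of these data known. Their shares of falls, here and below, therefore cannot be read as an excess over all probe sets. Of the 80 tested entries in these lists 12 fell (15%, against 3.00% of all probe sets) and 0 rose (against 4.54%). The uncalled gene wnt8a.L stands in the list of BMP-dependent genes and in that of mesendoderm, and counts in each. Of these 80, 10 passed the filter only through the ICD arrays, where they are high, and could hardly give any call but a fall. Among the other 70, 8 fell (11.4%). Of 18 tested genes for other secreted modulators 4 fell, but 6 of the 18 passed the filter only through the ICD arrays. Among the other 12, 2 fell (16.7%, against 3.00% of all probe sets), with a median of -0.30. The 4 that fell were fbn3.L (-3.23), whose fibrillin family binds latent growth factors in the matrix, fstl1.L (-3.01), a follistatin-like protein, kcp.L, a chordin-like BMP modulator, and bgn.L, a proteoglycan. Kcp.L had 29.0 and 31.6 with ICD+FoxJ1, against 68.7, 78.2 and 78.7 with ICD, tightly grouped and without overlap, and fell by 0.98 (SE 0.21, limma adjusted p = 0.0343). Bgn.L had 11.4 and 8.0 with ICD+FoxJ1, which is background, against 33.6, 28.1 and 55.3 with ICD, and was at least 1.46-fold lower on the scale of signal plus 16 (limma adjusted p = 0.0462). Both bgn.L and fstl1.L passed the filter only through the ICD arrays. With no filter neither kcp.L nor bgn.L passed (limma adjusted p of 0.0545 and 0.0652). Leaving out ICD replicate 1, 2 or 3 gave 6, 2 and 1 falls in this list, beside 5.65%, 1.81% and 1.43% of all probe sets. Leaving out the first or the second array with FoxJ1 gave 0, beside 0.344% and 0.293%.

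Of 27 tested genes for other regulators of Smads inside the cell 2 fell (7.41%, against 3.00% of all probe sets), with a list median of -0.11. They were the homeologs of tgif2, a corepressor that binds Smad2 and Smad3. Tgif2.S had 44.4 and 56.9 with ICD+FoxJ1, against 132.0, 270.5 and 412.9 with ICD, and tgif2.L had 45.8 and 70.9 with ICD+FoxJ1, against 136.2, 210.1 and 323.8 with ICD. In both copies all ICD arrays were above the arrays with FoxJ1 and took the same order, with replicate 3 brightest. Tgif2.S fell by 1.99 (SE 0.43, limma adjusted p = 0.0326) and tgif2.L by 1.63 (SE 0.36, limma adjusted p = 0.0376). With no filter tgif2.L did not pass (limma adjusted p = 0.0540). Each call was lost when any one array other than ICD replicate 1 was left out, where 0 genes of the list fell.

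Among 23 tested genes that depend on BMP in early epidermis or ventral tissue 3 fell (13%, against 3.00% of all probe sets), tp63.L (-1.81) of basal epidermis and both copies of the forkhead gene foxi4.2 (-1.74 and -1.34), while the list median was 0.17. Gata3.S, next in order of p, differed by -0.76 (limma adjusted p = 0.101). With no filter the S copy of foxi4.2 did not pass (limma adjusted p = 0.0545). When ICD replicate 1 was left out, 2 genes of this list rose, beside 6.44% of all probe sets, and 6 fell. When the other ICD arrays were left out in turn 2 fell each time, and 0 and 1 fell on leaving out the first and the second array with FoxJ1. Of 12 tested genes among 40 that activin and nodal induce in mesendoderm 3 fell, snai1.S (-2.78), snai2.S and snai2.L. Of the 12, 3 passed the filter only through the ICD arrays, and among the other 9, 1 fell (11.1%, against 3.00% of all probe sets), with a median of -0.03. The snai genes are better known for epithelial-mesenchymal transition and neural crest. With ICD+FoxJ1 snai2.S and snai2.L did not exceed background and were at least 1.95-fold and 1.3-fold lower, and passed the filter only through the ICD arrays. With no filter snai2.L was not called (limma adjusted p = 0.0621). Gsc.L, a homeobox gene of the organizer, differed by 0.61 (limma adjusted p = 0.220). In the mesendoderm list 4 fell when ICD replicate 1 was left out, 1 for ICD replicate 2, and 0 for any other array.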

How the data were processed

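Values are the authors' MAS5 signal intensities as deposited, 1 per probe set and array; the program is named per the submitters' processing notes, and its settings are not given in these sources. On every array the mean, after trimming 2% at both ends, was about 200, so the authors' values carry a common scaling. Of 15611 probe sets 120 controls were left out. In GEO's platform annotation 9304 of the others carry a single symbol, 195 carry several and 5992 carry no symbol. RefSeq's gene table (Xenopus_laevis_v10.1, names only) updated 2 symbols.

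Signals were compared as log2(signal + 16), which understates changes of dim probe sets, after the 25% with the lowest mean signal were left out (11618 remained). A linear model was fitted with limma (version 3.58.1, R 4.3.3; lmFit, eBayes with a variance trend) and tested on both sides, and p-values were adjusted by Benjamini and Hochberg's method across the whole tested table. The procedure was checked on simulated data made from this comparison (20 sets of 11618 probe sets, each with 200 changed). Noise was normal, with each probe set's observed residual SD. It recovered 11.7% of 2-fold changes, 70.2% of 4-fold changes and 93.6% of 16-fold changes. The real data gave 876 calls, and the adjusted threshold depends on how many probe sets change. These rates may therefore not carry over. Where the dimmer group lay at background on every array, those arrays were set to the higher of background and signal, and the resulting fold is a lower bound. The array number limits precision, and signal over background takes the place of depth.

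Members and lists were chosen with earlier results of these data known. Values on every array are printed for called members and, in each class, for the 3 further members with the smallest p; a further member with such values is marked as named after they were seen. Alternatives covered the pseudocount, filter, normalization, variance trend, probe set choice, blocks and each array left out. Figures were drawn with matplotlib 3.10.9. Sequences were not used here.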

Additional observations from a re-analysis of the deposited data

How the results depend on the processing

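Directions of smad6.L and id2.S held in all 14 alternatives run for each. Counts were 1 higher and 1 lower with a pseudocount of 1 or 64, quantile normalization, no variance trend, or the control split as a block. They were the same with a filter on mean log2 signal, chosen after seeing the data. Second brightest probe sets also gave the same counts. However, smad6.L and id2.S have no second probe set, so that choice could not lose their calls. With no filter 0 pathway genes rose and 1 fell, with 2, 1, 2 and 2 falls in the lists (secreted, intracellular, epidermal, mesendoderm). The 3 arrays with poly-A control signal alone gave 0 higher and 0 lower, with 1 secreted modulator and 0 genes of the other lists lower. With the control split as a block the lists had 2, 2, 2 and 0 falls in the same order. With 1 array left out, 0 to 3 pathway genes rose and 0 to 2 fell, and falls in the lists ran from 0 to 6 (secreted modulators), 0 to 2 (intracellular), 0 to 6 (epidermal, where 0 to 2 rose) and 0 to 4 (mesendoderm); a lone array with FoxJ1 is then assumed to vary like the ICD arrays. Calls over all probe sets numbered 876, but 169 to 1404 with 1 array left out, 322 with the replicate block and 172 on the arrays with poly-A control signal. With replicate number as a block 0 pathway genes rose and 0 fell, with 2, 0, 1 and 0 falls in the lists (secreted, intracellular, epidermal, mesendoderm). Numbers 1 and 2 occur in both groups. Deviations of same-numbered arrays from their group means had r of -0.0561 and -0.321 across probe sets. The deviations of the 2 arrays with FoxJ1 mirror each other, so this check cannot decide whether same-numbered arrays share embryos. Of the 40 uncalled genes 4 were called in some alternative, and 19 changed sign in at least 1 alternative without being called there. The 17 pathway genes at background on all arrays allow no statement on their change.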
